A study of Mus musculus with 8 samples.

Results

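Cap-F is a mouse feed that carries carbonate apatite particles without the CpG oligodeoxynucleotide, and the comparison with the standard feed Ctrl-F asks what the empty particle alone did to the lung transcriptome. The comparison rests on 4 of the 8 lungs of the series, 2 from Cap-F mice and 2 from Ctrl-F mice, chosen by their feed. All 4 mice were female BALB/c mice, bought at 4 weeks of age, that ate their feed freely until Day 70. Both groups were immunized with ovalbumin (OVA) in aluminum oxide gel by intraperitoneal injection and then inhaled nebulized OVA daily until the day before the lungs were taken, so OVA and the gel were common to Cap-F and Ctrl-F, and the particle is the treatment by which the labels set them apart. Cap-F was the standard powder feed with 1 mg of freeze-dried particle per 1 g. The other 4 lungs came from 2 ODNcap-F mice, which were OVA-treated and ate particles loaded with the oligodeoxynucleotide, and 2 NT mice, which ate standard feed and received no OVA, and their values are given beside those of Cap-F and Ctrl-F. The labels do not say whether the 2 mice of a group shared a cage or an experiment.

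Each lung was measured on 1 single-color array, and all 8 arrays lay on 1 slide. A value is the log2 signal of the brightest probe of a gene after quantile normalization, so a difference of 1 is a 2-fold change. Signals of different probes are not comparable with each other. Between 61.3% and 65.0% of probes per array exceeded background clearly, and replicate mice correlated over probes with r = 0.994 on Ctrl-F and equally on Cap-F. Both Ctrl-F arrays occupied slide row 1 and both Cap-F arrays slide row 2, so slide row and feed cannot be told apart. Surfactant protein C (Sftpc), which marks alveolar type 2 cells, stood at 17.64 in both Ctrl-F mice and at 17.64 and 17.60 on Cap-F, among the highest signals on each array.

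Carbonate apatite is a calcium phosphate mineral related to that of bone, and it dissolves in acid. Particles taken with food meet the gut first, where specialized epithelial cells and phagocytes can take them up, and calcium phosphate crystals are known to engage the inflammasome of macrophages. The OVA model fills the lung with eosinophils, activated macrophages and dividing leukocytes and turns airway cells into mucous cells, so the feeds were compared in tissue that was already inflamed.

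Few genes separated the feeds. Of 28992 genes or unnamed transcripts, limma called 1 (0.00345%), the unnamed transcript AK048705, with calls requiring more than 2-fold and an adjusted p below 0.05. Its log2 signal was 1.89 and 1.88 on Ctrl-F and 4.59 and 4.54 on Cap-F, and its probe was well above background in the Cap-F mice only, which makes it at least 1.46-fold higher in Cap-F (limma, adjusted p = 0.00035). The probe thus passed the filter through Cap-F alone. Its signal was also 1.89 in both ODNcap-F mice and 1.88 in both NT mice. The small spread behind that p therefore comes largely from values below background, and the p is no support for a difference. Among the 16571 named genes the smallest adjusted p by limma was 0.097, so no named gene below passed the test, and "higher" and "lower" describe where the mice stood. The local-pooled-error test, which the methods used and which borrows the spread from genes of similar signal, called 140, of which 89 were higher. With 2 mice against 2, an exact two-sided permutation test of a single gene cannot go below p = 0.333.

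In 218 genes (0.752%) both Cap-F mice lay above both Ctrl-F mice with means over 2-fold apart, and in 145 genes (0.5%) both lay below. Of the former, 85 had a name, and of the latter 68. Most of these genes were dim. Only 63 of the 218 and 44 of the 145 were well above background on all 4 arrays, 30 and 18 of them named. At an unadjusted limma p under 0.05 and over 2-fold, 172 genes (0.593%) were higher and 112 (0.386%) lower in Cap-F. The 2 Cap-F mice were themselves over 2-fold apart in 570 genes, of which 385 were higher in mouse 2, and the 2 Ctrl-F mice in 523.

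Among bright genes the feeds differed in the RNA-binding proteins induced by mild cold, Rbm3 and Cirbp, which bind RNA and keep translation going in cooled or stressed cells. Rbm3 (NM_001166409, chromosome X) was 14.16 and 14.13 on Ctrl-F and 13.11 and 13.03 on Cap-F. It was 14.20 and 14.12 on ODNcap-F and 13.08 and 12.83 in NT. Thus the Cap-F mice stood with the NT mice, and the ODNcap-F mice stood with the Ctrl-F mice. The mean was 2.10-fold lower on Cap-F than on Ctrl-F (log2 difference -1.07 ± 0.10, SE; limma adjusted p = 0.109). Of the other 3 probes for Rbm3, those with mean signals of 12.64 and 11.52 gave differences of -1.09 and -1.09, and the dimmest, at 8.66, gave -0.22. Cirbp (NM_007705, chromosome 10) was 11.74 and 11.70 on Ctrl-F, 10.88 and 10.92 on Cap-F, 12.13 and 11.39 on ODNcap-F, and 11.88 and 11.91 in NT. It was lowest in the Cap-F mice, 1.77-fold below Ctrl-F (log2 difference -0.82 ± 0.22, SE; limma adjusted p = 0.199), and its second probe gave -1.10.

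Heat shock genes encode chaperones that refold or hold damaged proteins. They are switched on when heat shock factor 1 binds repeats of nGAAn in their promoters. The inducible Hsp70 genes Hspa1a and Hspa1b are neighbors on chromosome 17 with near-identical coding sequence. Their windows from 250 bases before to 50 after the start of transcription (RefSeq, GRCm38.p6) are shown because the members of the pair stood apart from most other chaperones, together with that of the small heat shock protein gene Hspb1, which stood on the other side. Capitals mark GAANNTTC, 2 inverted nGAAn units, a motif that reads the same on both strands. The windows lie at chr17:34972107-34972406 (minus strand) for Hspa1a, chr17:34959189-34959488 (minus strand) for Hspa1b and chr5:135887669-135887968 (plus strand) for Hspb1.
Hspa1a: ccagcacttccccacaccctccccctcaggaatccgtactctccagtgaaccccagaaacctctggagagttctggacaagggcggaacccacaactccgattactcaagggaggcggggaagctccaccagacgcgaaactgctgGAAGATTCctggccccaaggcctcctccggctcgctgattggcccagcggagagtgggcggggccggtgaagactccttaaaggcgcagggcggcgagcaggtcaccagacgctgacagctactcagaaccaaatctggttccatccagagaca
Hspa1b: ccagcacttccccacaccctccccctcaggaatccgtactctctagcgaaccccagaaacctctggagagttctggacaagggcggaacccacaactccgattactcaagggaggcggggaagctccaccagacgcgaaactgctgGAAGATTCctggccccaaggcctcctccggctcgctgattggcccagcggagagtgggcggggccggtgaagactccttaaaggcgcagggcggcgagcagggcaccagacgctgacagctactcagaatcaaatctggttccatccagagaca
Hspb1: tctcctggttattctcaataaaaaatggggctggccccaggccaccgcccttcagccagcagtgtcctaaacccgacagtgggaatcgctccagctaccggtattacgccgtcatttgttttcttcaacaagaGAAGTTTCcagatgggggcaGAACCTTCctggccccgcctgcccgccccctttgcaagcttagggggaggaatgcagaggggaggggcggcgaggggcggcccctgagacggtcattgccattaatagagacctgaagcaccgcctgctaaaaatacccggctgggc
The windows of Hspa1a and Hspa1b differed at 4 of 300 bases and each held 1 copy of the motif at the same place, whereas that of Hspb1 held 2. The motif was in 2582 (7.86%) of all 32851 windows, and of the 19 measured heat shock genes with a window 11 did. A match shows only that the letters are there.

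Hspa1b was 11.16 and 11.31 on Ctrl-F, 9.38 and 9.41 on Cap-F, 9.47 and 11.52 on ODNcap-F, and 10.98 and 10.81 in NT. Hspa1a was 11.77 and 12.00 on Ctrl-F, 10.19 and 10.31 on Cap-F, 10.32 and 12.28 on ODNcap-F, and 11.97 and 11.70 in NT. The Cap-F mice were thus close to each other and below every Ctrl-F and NT mouse, and ODNcap-F mouse 1 stood with them while ODNcap-F mouse 2 stood with Ctrl-F. The Cap-F mean was 3.59-fold lower than that of Ctrl-F for Hspa1b (limma adjusted p = 0.238) and 3.10-fold lower for Hspa1a (limma adjusted p = 0.262), and because the pair is near-identical the probes may not tell its members apart. Dnajb1, the Hsp40 partner of Hsp70, was 13.79 and 14.00 on Ctrl-F, 12.92 and 13.07 on Cap-F, 13.04 and 13.98 on ODNcap-F, and 13.86 and 14.14 in NT, 1.86-fold lower in Cap-F (limma adjusted p = 0.245) and with the same split between the ODNcap-F mice. Hspa1l, a further Hsp70 gene of that cluster on chromosome 17, was 4.05 and 4.18 on Ctrl-F and 3.23 and 2.80 on Cap-F, where it was not well above background. Only 1 Ctrl-F array showed Hspa1l well above background, so it can be given only as at least 1.04-fold lower in Cap-F.

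Other chaperones stood the opposite way. Hspb1 was 13.54 and 13.86 on Ctrl-F, 14.55 and 14.81 on Cap-F, 13.19 and 14.01 on ODNcap-F, and 15.37 and 15.89 in NT, 1.98-fold higher on Cap-F than on Ctrl-F (limma adjusted p = 0.230). Hspa4l, a nucleotide exchange factor for Hsp70, was 9.88 and 10.13 on Ctrl-F and 10.47 and 10.79 on Cap-F, 1.54-fold higher (limma adjusted p = 0.269). Of 24 measured heat shock genes, 7 had both Cap-F mice above both Ctrl-F mice and 10 had both below, where over all genes 25.9% lay above and 25.8% below, 51.7% together. The median difference over the list was -0.10, against 0.00 over all genes, and -0.015 without Ctrl-F mouse 2. The heat shock list as a whole had no common direction. Of the members named here, Hspa1a, Hspa1b, Dnajb1 and Hspa1l were lower, and Hspb1 and Hspa4l were higher.

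**Figure D1:**
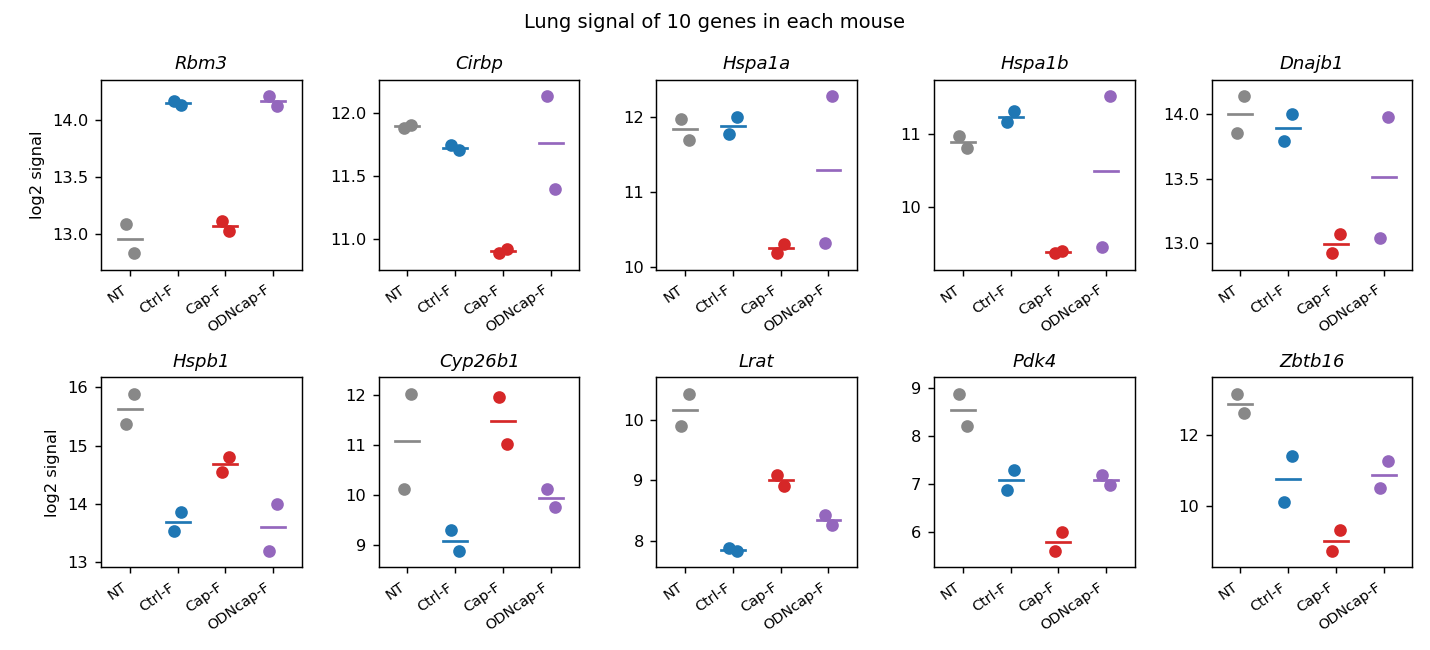
Log2 signal (vertical axes, each panel with its own range) of 10 genes in each mouse of the 4 groups (NT, Ctrl-F, Cap-F, then ODNcap-F); points are mice and lines are group means. The Cap-F mice lie below both Ctrl-F mice for Rbm3, Cirbp, Hspa1a, Hspa1b, Dnajb1, Pdk4 and Zbtb16 and above them for Hspb1, Cyp26b1 and Lrat.

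Among genes that handle vitamin A, Cyp26b1 and Lrat were over 2-fold higher on Cap-F, while the list as a whole was mixed. Retinol is stored as an ester by Lrat, and its aldehyde, retinal, is oxidized to retinoic acid by Aldh1a1 and its relatives. The Cyp26 enzymes clear retinoic acid, and Cyp26b1, Lrat and the receptor gene Rarb are themselves known targets of it. Cyp26b1 (NM_175475, chromosome 6) was 9.30 and 8.88 on Ctrl-F, 11.96 and 11.01 on Cap-F, 10.13 and 9.75 on ODNcap-F, and 10.13 and 12.02 in NT. No Cap-F mouse overlapped a Ctrl-F or ODNcap-F mouse, but the NT mice spanned almost the whole range. Its Cap-F mean was 5.27-fold above that of Ctrl-F (log2 difference 2.40 ± 0.64, SE; limma adjusted p = 0.194).

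Lrat (NM_023624, chromosome 3) was 7.88 and 7.84 on Ctrl-F, 9.10 and 8.91 on Cap-F, 8.42 and 8.26 on ODNcap-F, and 9.89 and 10.43 in NT. Here the Ctrl-F mice were lowest and the 2 mice of each OVA-treated group agreed closely, with Cap-F 2.21-fold above Ctrl-F (log2 difference 1.14 ± 0.18, SE; limma adjusted p = 0.126). Of the 14 measured genes of the list 10 were higher and 4 lower. In 7 the feeds overlapped, and 7 had both Cap-F mice above both Ctrl-F mice and none had both below, against 25.9% and 25.8% of all genes. At an unadjusted p under 0.05, 6 were higher, against 8.99% of all genes. The list median was 0.10, and the 7 genes whose mice overlapped included differences down to -0.68. Of the others, 3 were chosen for naming after their values were seen. Aldh1a1 was 0.54 higher on the log2 scale, Rarb 0.42, and Dhrs3, which turns retinal back into retinol, 0.27, all with adjusted p between 0.208 and 0.282 by limma.

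Genes that respond to glucocorticoids were mostly lower in Cap-F. Zbtb16 encodes a zinc-finger repressor that corticosteroids strongly induce, and Pdk4, a kinase that shuts pyruvate out of the mitochondrion, responds both to corticosteroids and to fasting. Zbtb16 was 10.11 and 11.42 on Ctrl-F, 8.74 and 9.33 on Cap-F, 10.50 and 11.26 on ODNcap-F, and 13.15 and 12.60 in NT, 3.31-fold lower on Cap-F than on Ctrl-F (limma adjusted p = 0.215). The Ctrl-F mice themselves were far apart, and its log2 difference of -1.73 was -2.38 without Ctrl-F mouse 1 and -1.07 without Ctrl-F mouse 2. Pdk4 was 6.87 and 7.30 on Ctrl-F, 5.61 and 6.0 on Cap-F, 7.19 and 6.99 on ODNcap-F, and 8.87 and 8.20 in NT, 2.43-fold lower in Cap-F (limma adjusted p = 0.165). For both genes the 2 Cap-F mice were the lowest of the 8. Cdkn1a, the cell cycle inhibitor p21, was 10.51 and 10.81 on Ctrl-F and 9.97 and 10.13 on Cap-F, 1.53-fold lower. Angptl4, which blocks lipoprotein lipase, was 12.42 and 12.30 on Ctrl-F and 11.99 and 11.37 on Cap-F, 1.60-fold lower.

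Of the 19 measured genes of the glucocorticoid list, 17 were lower in Cap-F, 14 of them with no overlap and 1 gene with no overlap the other way. Over all genes 25.8% lay below and 25.9% above with no overlap. The median of the glucocorticoid list was -0.25, and without either Cap-F mouse it was -0.32 or -0.30. At an unadjusted p under 0.05, 3 of the 19 were lower, against 7.65% of all genes, and the smallest adjusted p in the list was 0.165 (limma). The list of fasting and lipid fuel genes, which shares Pdk4 and Angptl4 with the glucocorticoid list, had 15 of 19 genes lower. Of these, 12 had no overlap, against 25.8% of all genes, none lay above, and the median was -0.21.

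Clock genes differed in both directions. The core clock cycles through activators such as Arntl, repressors of the Per, Cry and Nr1d families, and output factors, and tissues taken at different hours differ in all of them. Hour of collection is not given in the labels. Per3 was 8.49 and 8.44 on Ctrl-F and 9.29 and 8.96 on Cap-F, 1.58-fold higher (limma adjusted p = 0.169). Nr1d1 was 8.05 and 8.27 on Ctrl-F and 7.80 and 6.77 on Cap-F, 1.83-fold lower, with most of the difference in mouse 2. Of 18 measured clock genes 10 lay above and 4 below with no overlap, against 25.9% and 25.8% of all genes. The list median of 0.20 became 0.06 without Cap-F mouse 1.

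Most cell cycle genes had slightly lower means on Cap-F. OVA inhalation fills the lung with dividing cells, and the mean log2 level over the 25 measured cell cycle genes was 8.03 and 8.01 in NT. It was 11.14 and 11.07 on Ctrl-F, 10.95 and 10.92 on Cap-F, and 11.01 and 10.97 on ODNcap-F. Cap-F was lower than Ctrl-F for 24 of the 25 genes, with no overlap for 20, and the 1 gene with no overlap the other way was Mcm3, a helicase subunit. Over all genes 25.8% lay below and 25.9% above with no overlap. The median difference was -0.18, the range -0.34 to 0.06, and 9 genes were lower at an unadjusted p under 0.05, against 7.65% of all genes. The brightest members were Mcm6, a subunit of the replication helicase, and Pcna, the sliding clamp of DNA polymerase. Mcm6 was 13.28 and 13.18 on Ctrl-F and 13.20 and 13.14 on Cap-F, and Pcna 13.31 and 13.32 on Ctrl-F and 13.32 and 13.30 on Cap-F, so for these replication genes the feeds overlapped. The largest differences were in mitotic genes, which were chosen for naming after their values were seen. Cdk1, the kinase that starts mitosis, was 9.20 and 9.24 on Ctrl-F and 8.92 and 8.85 on Cap-F. The centromere protein gene Cenpf was 10.03 in both Ctrl-F mice and 9.67 and 9.73 on Cap-F. In a whole lung, fewer cells of a type and less RNA per cell cannot be told apart.

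**Figure D2:**
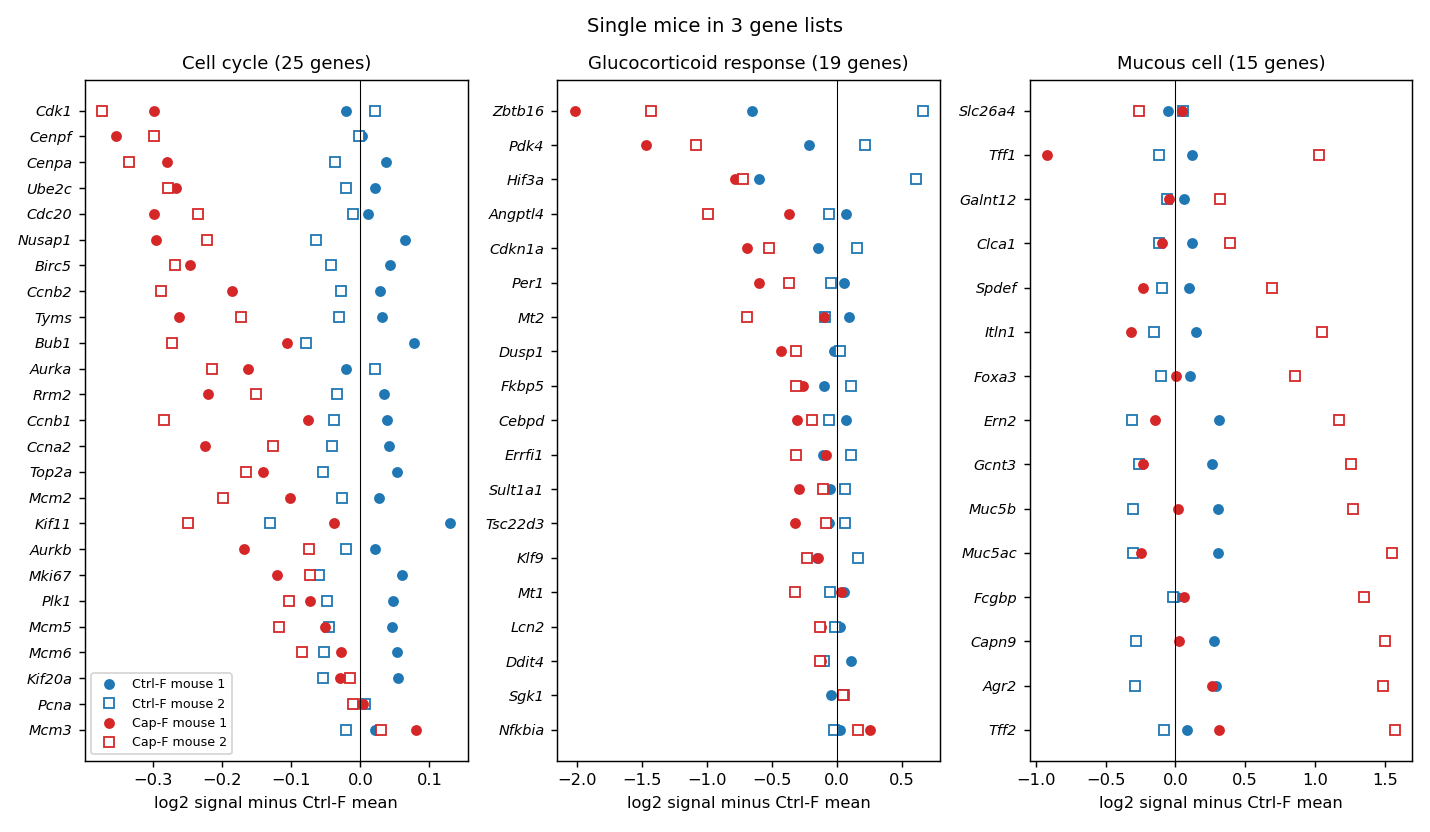
Log2 signal of each mouse minus the mean of the 2 Ctrl-F mice (horizontal axes, each panel with its own range) for the measured cell cycle, glucocorticoid response and mucous cell genes, ordered by the difference between the feeds; circles are mouse 1 and squares mouse 2 of Ctrl-F (blue) and Cap-F (red). Both Cap-F mice lie below both Ctrl-F mice for 20 of 25 cell cycle and 14 of 19 glucocorticoid genes, against 25.8% of all genes. In all mucous cell genes but Slc26a4, in contrast, Cap-F mouse 2 alone stands far to the right.

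Among leukocyte markers most differences were small, and no marker passed the test. Cd163, a scavenger receptor of tissue macrophages, was 9.92 and 10.40 on Ctrl-F, 9.11 and 9.43 on Cap-F, 10.23 and 10.62 on ODNcap-F, and 7.61 and 7.33 in NT, 1.85-fold lower in Cap-F (limma adjusted p = 0.184). Its second, dimmer probe gave -1.61, but at 3.76 and 3.91 on Cap-F it was not well above background there, so the size of that difference is uncertain. Of 16 measured macrophage markers 6 had both Cap-F mice below both Ctrl-F mice and none had both above, 5 were lower at an unadjusted p under 0.05, and the median was -0.12. Over all genes 25.8% lay below and 7.65% were lower at that p, and the feeds overlapped in the remaining 10 macrophage markers. The other separated markers were less than 1.5-fold lower. Among them the mannose receptor gene Mrc1, named after its values were seen, was 12.60 and 12.68 on Ctrl-F and 12.23 in both Cap-F mice.

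The mast cell protease genes Mcpt1, Mcpt2 and Mcpt4, which mature mast cells of mucosa and connective tissue store in granules, were all lower. Mcpt1 was 8.08 and 8.35 on Ctrl-F, 6.95 and 7.76 on Cap-F, 8.21 and 9.02 on ODNcap-F, and 1.74 and 2.44 in NT, 1.82-fold lower in Cap-F (limma adjusted p = 0.354). Mcpt2 was 5.66 and 5.83 on Ctrl-F and 4.13 and 5.39 on Cap-F, where only 1 array was well above background. Mcpt4 was 8.72 and 9.05 on Ctrl-F and 7.95 and 8.46 on Cap-F, 1.60-fold lower. Of 11 measured mast cell and basophil markers, 10 were lower in Cap-F, 8 of them with no overlap against 25.8% of all genes, and the median was -0.34. No marker of the list reached an unadjusted p of 0.05, and with normexp background correction the median was -0.14.

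Markers of eosinophils and neutrophils gave no common direction. The brightest eosinophil markers were the ribonuclease genes Ear1 and Ear2, which resemble each other closely, and for both the feeds overlapped, Ear2 at 15.49 and 15.25 on Ctrl-F and 15.38 and 15.29 on Cap-F. Of 11 eosinophil markers 3 lay above and 2 below with no overlap, and the median of -0.10 turned to 0.03 without Ctrl-F mouse 2. Of 12 neutrophil markers 4 lay above and 3 below, with a median of 0.09. For both lists the shares over all genes were 25.9% above and 25.8% below. The brightest, the alarmin S100a9 and the receptor gene Csf3r, were 0.23 and 0.21 higher in Cap-F on the log2 scale with no overlap.

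T cell and cytotoxic lymphocyte markers were higher on Cap-F for 14 of 17 genes, by small amounts. Gzmk, a granzyme of memory T cells, was 4.34 and 4.15 on Ctrl-F, where 1 array was well above background, 5.32 and 5.13 on Cap-F, 5.27 and 4.61 on ODNcap-F, and 3.34 and 3.0 in NT. Its Cap-F mean was 1.98-fold higher than that of Ctrl-F (limma adjusted p = 0.175). Of 17 measured markers 10 lay above with no overlap, against 25.9% of all genes, and 1, the costimulatory receptor gene Icos, below, and the median of 0.16 was 0.08 without Cap-F mouse 1. The markers above included Foxp3, which defines regulatory T cells and was 5.83 and 6.0 on Ctrl-F and 6.48 and 6.34 on Cap-F, and Ifng, which was 7.37 and 7.32 on Ctrl-F and 7.84 and 7.59 on Cap-F; both were named after their values were seen. Il17a, a cytokine of T cells that recruits neutrophils, was 3.92 and 2.00 on Ctrl-F and 5.22 and 5.01 on Cap-F. It was 4.56 and 2.19 on ODNcap-F and 1.88 and 2.00 in NT, and it was well above background on both arrays only in Cap-F, which puts it at least 2.14-fold above Ctrl-F (limma adjusted p = 0.311). Il17a thus passed the filter through Cap-F alone. The log2 difference of Il17a, 2.16, was 1.2 without Ctrl-F mouse 2. In the B and plasma cell list, with 5 of 14 markers above and 2 below and a median of 0.05, the member furthest apart was Cr2, the complement receptor of mature B cells and follicular dendritic cells. Cr2 was 10.88 and 10.60 on Ctrl-F, 11.54 and 11.64 on Cap-F, 11.08 and 10.81 on ODNcap-F, and 10.70 and 10.13 in NT, 1.80-fold higher in Cap-F (limma adjusted p = 0.182), and its other 2 probes gave 0.70 and 0.69.

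Among genes of type 2 inflammation, the program that drives the OVA response, the cytokines themselves overlapped or differed little. Il4 was 9.11 and 9.28 on Ctrl-F and 9.14 and 8.99 on Cap-F, and Il5 was 6.23 and 6.77 on Ctrl-F and 6.44 and 6.02 on Cap-F; they were chosen for their role in the model. Il13ra2, a decoy receptor that interleukin 13 induces, was 8.35 and 8.90 on Ctrl-F, 7.74 in both Cap-F mice, 8.32 and 8.49 on ODNcap-F, and 4.10 and 3.26 in NT, 1.84-fold lower in Cap-F (limma adjusted p = 0.251). Tslp, an epithelial alarmin, was 5.97 and 5.96 on Ctrl-F, 6.83 and 6.65 on Cap-F, 5.93 and 6.36 on ODNcap-F, and 8.07 and 8.37 in NT, 1.71-fold higher in Cap-F (limma adjusted p = 0.169). Of 16 measured genes 12 were lower in Cap-F, 5 with no overlap, and Tslp was the 1 gene above. Over all genes 25.8% lay below. The median of -0.17 was -0.03 without Ctrl-F mouse 2 and -0.24 without Cap-F mouse 1.

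Genes linked to particle uptake or to its mineral were examined as lists for Toll-like receptors, for the inflammasome and interleukin 1 family, and for calcium and phosphate handling. The particle was eaten, and whether any of it reached the lung was not tested. Each of these lists had a median near 0. Their counts above and below with no overlap stand beside 25.9% and 25.8% of all genes. Of 18 Toll-like receptor genes 6 lay above and 6 below, and Tlr9, the receptor for the CpG DNA that the empty particle lacks, was 10.06 and 9.94 on Ctrl-F and 9.81 and 9.91 on Cap-F. Tlr8, an RNA receptor of endosomes, was 4.60 and 4.89 on Ctrl-F and not well above background in Cap-F, at least 1.51-fold lower. Of 19 inflammasome and interleukin 1 genes 3 lay above and 6 below. Il1b, named for its place in the inflammasome, was 10.48 and 10.49 on Ctrl-F, 10.67 and 10.69 on Cap-F, 10.24 and 10.21 on ODNcap-F, and 9.96 and 10.08 in NT, a difference of 0.19 ± 0.07 (SE) on the log2 scale. Il6 was 7.39 and 7.61 on Ctrl-F, 6.66 and 6.71 on Cap-F, 7.20 and 7.66 on ODNcap-F, and 3.26 and 3.90 in NT, 1.76-fold lower in Cap-F (limma adjusted p = 0.221), and its dimmer probe gave -1.13. Il1r2, the decoy receptor for interleukin 1, was 9.86 and 10.18 on Ctrl-F and 9.49 and 9.31 on Cap-F, 1.54-fold lower.

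Of 33 genes listed for calcium and phosphate handling 23 were measured, 6 above and 6 below, against 25.9% and 25.8% of all genes, with a median of -0.01. The member furthest apart was Car3, a carbonic anhydrase abundant in fat and muscle, at 2.18 and 5.52 on Ctrl-F, 4.65 and 7.75 on Cap-F, 7.39 and 8.70 on ODNcap-F, and 8.52 and 8.18 in NT. Its feeds overlapped, with 1 Ctrl-F array well above background (log2 difference 2.35 ± 1.38, SE; limma adjusted p = 0.442), although the local-pooled-error test called it. Car3 was named after its values were seen, and the 12 members without overlap were each under 1.5-fold apart. The brightest, Spp1 (osteopontin), which binds apatite surfaces, was 15.45 and 15.80 on Ctrl-F, 15.19 and 15.15 on Cap-F, 15.63 and 15.24 on ODNcap-F, and 10.60 and 10.51 in NT, 1.37-fold lower in Cap-F (limma adjusted p = 0.273). Mgp, an inhibitor of calcification, was 14.67 and 14.83 on Ctrl-F and 14.86 and 14.84 on Cap-F.

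**Figure D3:**
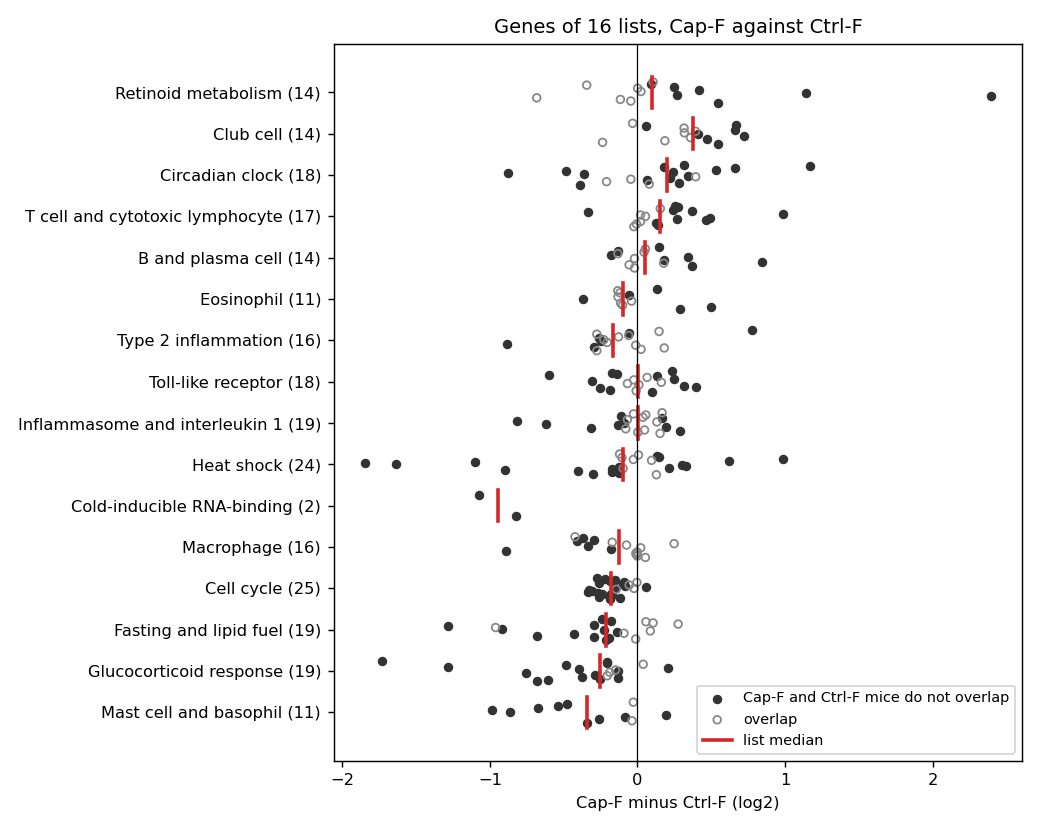
Log2 difference between the Cap-F and Ctrl-F means (horizontal axis) for every measured gene of 16 lists, with the number of measured genes in parentheses; filled points are genes whose Cap-F and Ctrl-F mice did not overlap, open points overlapped, and red bars are list medians. The medians run from -0.95 for the 2 cold-inducible genes and -0.34 for mast cell and basophil markers to 0.38 for club cell markers.

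In the extracellular matrix list the genes split. Timp1, an inhibitor of matrix metalloproteinases, was 14.40 and 14.62 on Ctrl-F, 13.88 and 13.70 on Cap-F, 14.42 and 14.45 on ODNcap-F, and 9.45 and 9.24 in NT, 1.65-fold lower in Cap-F (log2 difference -0.72 ± 0.12, SE; limma adjusted p = 0.132). Cap-F was thus below both other OVA-treated groups for this bright gene. Elastin (Eln) was 8.81 and 9.15 on Ctrl-F and 8.12 and 8.65 on Cap-F, 1.51-fold lower, but its second probe overlapped between the feeds. The proteoglycan gene Dcn was 11.63 and 10.88 on Ctrl-F and 11.69 and 12.35 on Cap-F, and Sfrp4, a secreted inhibitor of Wnt signaling, was 4.03 and 4.76 on Ctrl-F and 4.96 and 6.39 on Cap-F. For Dcn and Sfrp4 the spread within Cap-F was about as wide as the difference between the feeds. Of 23 measured matrix genes 9 lay above and 4 below, against 25.9% and 25.8% of all genes, and the median was 0.01.

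Markers of the airway lining were higher in Cap-F mainly through mouse 2. Of 14 measured markers of club cells, the secretory cells that detoxify inhaled compounds, 7 lay above with no overlap and none below, against 25.9% and 25.8% of all genes. The median of the club cell markers, 0.38, became 0.63 when Cap-F mouse 1 was left out and 0.14 when mouse 2 was. All 14 were higher in Cap-F mouse 2 than in mouse 1. Gsta3, a glutathione transferase, was 11.14 and 11.31 on Ctrl-F, 11.68 and 12.10 on Cap-F, 11.42 and 11.82 on ODNcap-F, and 14.52 and 14.61 in NT, 1.58-fold higher in Cap-F (limma adjusted p = 0.207). The cytochrome P450 gene Cyp2a5 was 11.24 and 10.83 on Ctrl-F and 11.31 and 12.21 on Cap-F, and the secretoglobin Scgb3a1 was 14.97 and 14.68 on Ctrl-F and 14.97 and 16.01 on Cap-F, so that for both genes Cap-F mouse 1 stood at the level of the higher Ctrl-F mouse.

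The same mouse stood out in mucous and ciliated cell markers. Over 15 mucous cell genes the median difference was 0.51 with both mice, 1.17 without mouse 1 and -0.05 without mouse 2. Tff2, a trefoil peptide secreted with mucin, was 10.36 and 10.20 on Ctrl-F, 10.59 and 11.85 on Cap-F, 10.98 and 12.09 on ODNcap-F, and 7.12 and 8.19 in NT. Fcgbp, a mucin-binding protein, was 11.65 and 11.62 on Ctrl-F and 11.70 and 12.99 on Cap-F. These were the only members with no overlap, 2 of 15. Of 14 ciliated cell markers 3 lay above and none below, with a median of 0.37 that was 0.75 without mouse 1 and 0.02 without mouse 2. Across all genes 25.9% lay above and 25.8% below.

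Cardiac muscle genes behaved alike. In the 16 cardiac genes that the study selected on these lungs, 3 lay above and none below, against 25.9% and 25.8% of all genes. Their median of 0.78 became 1.48 without Cap-F mouse 1 and -0.23 without mouse 2. The members above were Tnni3, which encodes cardiac troponin I, the giant sarcomere protein gene Ttn, and Nppa, the atrial natriuretic peptide gene. Tnni3 was 6.70 and 6.74 on Ctrl-F and 7.01 and 8.64 on Cap-F, Ttn was 4.84 and 5.03 on Ctrl-F and 5.06 and 6.93 on Cap-F, and Nppa was 5.51 and 5.85 on Ctrl-F and 5.86 and 7.30 on Cap-F. The second probe for Tnni3 overlapped between the feeds, at 6.24 and 6.04 on Ctrl-F and 6.10 and 8.07 on Cap-F. Another 27 cardiac genes had a median of 0.30, which was 0.70 without mouse 1 and -0.12 without mouse 2. Because the study chose the first of these lists from these samples, its direction is not independent evidence.

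The 10 named genes furthest apart between the 2 Cap-F mice, among those on which the Ctrl-F mice agreed within 1.5-fold, were all higher in mouse 2. They were the sarcoplasmic reticulum genes Dhrs7c, Trdn, Casq2 and Pln, the cardiac troponin gene Tnnt2, the antimicrobial lectin gene Reg3g, the adipocyte hormone gene Adipoq, the substance P receptor gene Tacr1, and Smoc1 and Igsf1. Reg3g was 11.38 and 11.63 on Ctrl-F and 8.94 and 12.82 on Cap-F. Casq2, which binds calcium in muscle, was 5.02 and 5.42 on Ctrl-F and 4.21 and 7.03 on Cap-F, and Adipoq was 4.03 and 4.12 on Ctrl-F, not well above background, and 3.39 and 6.17 on Cap-F. Except for Trdn and Pln, the Cap-F mice lay on either side of both Ctrl-F mice in these 10 genes. The part that the heart, fat and airway tissue in each lung sample had in the other differences was not tested. The median difference between Cap-F mouse 2 and mouse 1 was 1.72 over the study's cardiac genes and 1.26 over the mucous cell genes but -0.02 over the cell cycle genes, 0.00 over the glucocorticoid genes and 0.06 over the heat shock genes.

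**Figure D4:**
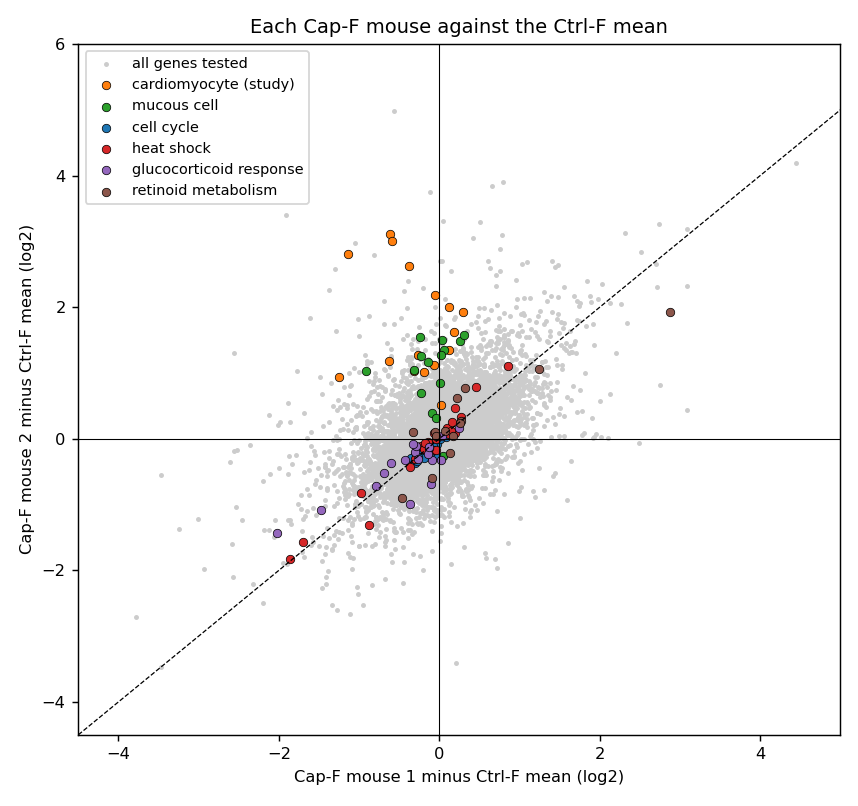
Log2 signal of Cap-F mouse 1 (horizontal axis) and Cap-F mouse 2 (vertical axis), each minus the mean of the 2 Ctrl-F mice, for 28992 genes or transcripts (gray) and 6 gene lists (colors); both axes share the Ctrl-F mean, and on the dashed line the Cap-F mice are equal. Heat shock, glucocorticoid and retinoid genes lie near the line, whereas most cardiac and mucous cell genes lie above it, higher in mouse 2.

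Among named genes with means over 2-fold apart, no overlap and both arrays of the higher feed well above background, 54 were higher and 43 lower in Cap-F. The 15 with the widest gap among the higher ones included, besides Cyp26b1, Lrat and Il17a, the muscle nuclear envelope gene Mlip, Iqch, the cystatin gene Cst8, the phosphate transporter family gene Slc17a2, the receptor gene Lgr4, Shisa3, Trim43b and the noncoding or predicted genes Gm16982, Arhgap33os, 1700018B24Rik, Gm5105 and Gm35933. Mlip was 1.78 and 1.79 on Ctrl-F, 4.87 and 4.97 on Cap-F, 4.64 and 5.32 on ODNcap-F, and 5.92 and 4.77 in NT, and it was not well above background only in Ctrl-F, which makes it at least 1.87-fold higher in Cap-F (limma adjusted p = 0.11). Slc17a2 was 3.98 and 4.35 on Ctrl-F, 5.86 and 5.66 on Cap-F, 4.34 and 4.33 on ODNcap-F, and 5.82 and 5.80 in NT, 3.01-fold higher in Cap-F, with 1 Ctrl-F array well above background (limma adjusted p = 0.097). Lgr4, which binds R-spondins and strengthens Wnt signaling, was 5.40 and 5.32 on Ctrl-F, 6.39 and 6.79 on Cap-F, 5.89 and 5.76 on ODNcap-F, and 6.87 and 6.96 in NT. Its second, dimmer probe did not separate the feeds (0.05). Cst8 was 4.16 and 4.31 on Ctrl-F and 6.16 and 5.99 on Cap-F, 3.57-fold higher, with 1.75 on the log2 scale from its second probe. Iqch, like Il17a, passed the filter through Cap-F alone, so its separation is no support for a difference.

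The 15 lower ones included, besides Hspa1a, Hspa1b and Rbm3, the protease inhibitor genes A2m and Serpina3k, the Notch ligand gene Dll3, the metallothionein-like gene Tesmin, the peroxisomal oxidase gene Acoxl, Gas2l3, the melanocortin receptor gene Mc3r, 2210407C18Rik, Gm10375, BC061237, Gm1976 and Eprn. Among these, 2210407C18Rik was 7.35 and 6.56 on Ctrl-F, 5.25 and 5.56 on Cap-F, 7.97 and 8.15 on ODNcap-F, and 1.75 and 1.77 in NT, 2.93-fold lower on Cap-F than on Ctrl-F (limma adjusted p = 0.13). Mc3r was 8.32 and 7.24 on Ctrl-F, 6.33 and 6.31 on Cap-F, 7.20 and 7.15 on ODNcap-F, and 5.12 and 4.72 in NT, 2.75-fold lower in Cap-F (limma adjusted p = 0.173). A2m was 4.99 and 4.89 on Ctrl-F and not well above background in Cap-F, at least 1.85-fold lower, and Serpina3k was 4.69 and 4.87 on Ctrl-F and not well above background in Cap-F, at least 1.65-fold lower. Gm10375 and BC061237, predicted genes on chromosome 14, were 5.44 and 5.26 and 4.77 and 4.70 on Ctrl-F, and neither was well above background in Cap-F. A2m, Serpina3k, Gm10375, BC061237 and Gas2l3 passed the filter through Ctrl-F alone, the feed where they were higher. Their separation is therefore no support for a difference.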

How the data were processed

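Lung RNA of 8 mice was hybridized to 8 single-color arrays. The authors deposited background-subtracted intensity values per spot from Agilent Feature Extraction 11.0, not normalized between arrays, and a table of log2 values after quantile normalization, which holds 32312 probes. Here, intensities of 59305 spots without controls were transformed to log2, 792 flagged values were set to missing, and 56605 probes were quantile normalized over the 8 arrays. The filter kept 37116 probes, those that both mice of some group showed well above background. Of these, 24290 (65.4%) matched a gene name through RefSeq accessions (GRCm38.p6), and others are counted under their accession. When only the probes of the deposited log2 table were normalized in this way, the values differed from that table by at most 0.12. The values normalized over all 56605 probes, which the results use, were not part of that check. No spot was saturated, and precision is limited by how few arrays there are.

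The main fit used limma 3.58.1 in R 4.3.3 on the 4 groups without covariates, with 4 residual and 1.96 prior degrees of freedom, and was tested on simulated data. The methods used the local-pooled-error test, which was rebuilt here with 100 bins and a spline of 10 degrees of freedom as an alternative. A call required over 2-fold and p below 0.05 after Benjamini-Hochberg adjustment across all kept probes. A gene that no array of 1 feed measured well above background is given as a bound, at least N-fold, against the higher of its own signal and the lowest signal well above background on each array.

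Genes were named by rule: every called gene, the 15 named genes with the widest gap between the feeds each way among those over 2-fold apart, up to 4 members each way per list that were over 1.5-fold apart with no overlap (otherwise the 2 brightest), and the 10 furthest apart between the Cap-F mice. The 43 lists and these rules were chosen with earlier results of these data known. Every count of list members above or below with no overlap stands against 25.9% and 25.8% of all genes. A limma p sets the difference against the spread between mice within the 4 groups, drawn toward a prior shared by all genes. The local-pooled-error p sets it against the spread of genes of similar signal. Alternatives were scaling to the 75th percentile, normexp background correction (offset 50), the deposited table, 2 other filters, the mean of a gene's probes, each array left out, a replicate block, a prior spread that follows intensity, Ctrl-F and Cap-F fitted alone and the local-pooled-error test. Columns of other measures were not analysed here. Some genes that the rule names are not reported here.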

Additional observations from a re-analysis of the deposited data

How the results depend on the processing

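The counts depended on how dim probes were treated. Called genes, genes past an unadjusted p and genes apart in both mice numbered 1, 284 and 363. They were 8, 600 and 1027 with no filter, 0, 72 and 83 with probes well above background on all 8 arrays, 0, 73 and 84 in the deposited table, and 1, 23 and 28 with normexp, which called Rbm3 alone. Restricted, after seeing the data, to genes well above background on all 4 Ctrl-F and Cap-F arrays, they were 0, 88 and 107. With normexp the share higher fell to 30.4% and 32.1%, from 60.6% and 60.1%. Called genes were 17 with an intensity trend, which called Rbm3, Lrat, Lgr4, Mlip and Slc17a2 but not AK048705, 0 in a fit of Ctrl-F and Cap-F alone (248 past an unadjusted p), and 140 by the local-pooled-error test, or 91 on the deposited table, where 94 passed an unadjusted p. The local-pooled-error test takes the spread from genes of similar signal and not from the gene itself. With each array left out the counts ranged from 1 to 6, from 259 to 501 and from 363 to 678, highest without Ctrl-F mouse 1 for called genes (6) and without Cap-F mouse 1 for the others; without Ctrl-F mouse 1 they were 6, 424 and 592. With the replicate block the counts were 1 and 290. The replicate numbers did not pair the mice: deviations of mice with the same number correlated by -0.01 to 0.16.

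Of the named genes, those that changed direction under any alternative were chosen for the difference between the Cap-F mice. Under normexp the log2 difference of Smoc1 turned from -0.37 to 0.063. With each array left out the log2 difference ranged from -0.69 to 2.09 for Adipoq, from -1.01 to 1.81 for Casq2, from -1.30 to 2.59 for Dhrs7c, from -1.0 to 1.56 for Igsf1, from -2.56 to 1.31 for Reg3g, from -1.77 to 1.03 for Smoc1, from -1.29 to 1.64 for Tacr1 and from -0.38 to 2.62 for Tnnt2, lowest without Cap-F mouse 2 and highest without Cap-F mouse 1. A feed left with 1 mouse is assumed to vary like the other groups.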

Other observations

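All 9 measured red blood cell genes had lower means on Cap-F (median log2 difference -0.26), but 7 overlapped between the feeds, and leaving out Cap-F mouse 2 gave a median of -0.49 and leaving out mouse 1 one of -0.006. The alpha globin gene Hba-a1 was 17.27 and 17.22 on Ctrl-F and 17.19 and 17.27 on Cap-F. Of 11 genes in a list of taste and other receptor genes 4 were measured. Of these, 3 lay below with no overlap, against 25.8% of all genes, and the median was -0.85, and -0.57 without Ctrl-F mouse 1. The 3 included the melanocortin receptor gene Mc3r, which was already named above for its gap between the feeds. Tas2r113, a bitter taste receptor gene, was 10.49 and 9.44 on Ctrl-F, 9.03 and 8.77 on Cap-F, 9.50 and 9.60 on ODNcap-F, and 7.34 and 7.23 in NT, 2.10-fold lower on Cap-F (limma adjusted p = 0.222). Tas1r3, a subunit of the sweet and umami taste receptors, was 5.88 and 5.80 on Ctrl-F, 5.26 and 5.14 on Cap-F, 5.91 and 6.05 on ODNcap-F, and 4.86 and 4.96 in NT, 1.56-fold lower on Cap-F (limma adjusted p = 0.11).

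Several other lists had medians near 0, and their counts stand beside 25.9% of all genes above and 25.8% below. Of 22 interferon-stimulated genes 3 lay above and none below with no overlap, and their median of -0.07 was 0.19 without Ctrl-F mouse 1 and -0.36 without Ctrl-F mouse 2. Of 17 genes of the unfolded protein response 4 lay above and 7 below (-0.05). Of 26 chemokine genes 6 lay above and 7 below (0.03). Of 11 MHC class II genes, which present antigen to T cells, 5 lay above and 1 below (0.07). Among markers of alveolar cells, those of type 1 cells had 1 of 11 above and 4 below (-0.08) and those of type 2 cells 2 of 14 above and 4 below (-0.03), and of 15 endothelial markers 1 lay above and 2 below (-0.03). Of 22 measured adipocyte genes 10 were higher and 12 lower in Cap-F, 2 lay above and 4 below with no overlap, and the median was -0.02. A member above was Adrb3, the adrenergic receptor of adipocytes, at 7.55 and 7.56 on Ctrl-F and 8.24 and 8.32 on Cap-F. It was 7.99 and 8.39 on ODNcap-F and 10.89 and 11.27 in NT, and 1.65-fold higher on Cap-F than on Ctrl-F.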
